A study of Mus musculus with 9 samples.

Results

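The RNA of 43 genes of glycolysis and of the response to low oxygen was compared in lung macrophages sorted from mice with and without a lung tumor. The genes were looked up by symbol among the 24346 symbols measured, and all 43 were listed. Of these, 25 were glycolysis and lactate genes, from the glucose carrier Slc2a1 to the mitochondrial kinase Pdk1, and 18 were hypoxia genes, from Hif1a to Mxi1. Levels were given as FPKM, in which the fragments of a gene are divided by its transcript length and by the mapped fragments of the sample, so that levels of different genes can be compared per length. A gene was tested where it reached 1 FPKM in at least 3 of the 9 samples. This held for 38 of the 43 genes, 23 of glycolysis and 15 of hypoxia, and for 10686 genes in all. The 9 samples formed 3 groups of 3, all from C57BL/6 mice at postnatal week 10.

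Ctrl-AM were alveolar macrophages (AMs) of mice that received vehicle without tumor cells. Tumor-AM were the same population from mice whose left lung had been injected with Lewis lung carcinoma cells carrying the red protein tdTomato, a line that grows in C57BL/6 mice. Tumor-macrophage, the tumor-associated macrophages (TAMs), came from tumor-bearing mice. All were sorted from enzymatically digested lungs as autofluorescent cells with the leukocyte antigen CD45, AMs by Siglec-F and TAMs as Siglec-F- cells with CD11b. The tumors came from 1 cell line, control and tumor-bearing mice were bred separately, and the labels do not say whether an AM and a TAM sample with the same number came from the same mouse. Differences between the breeding groups and those of the tumor therefore cannot be told apart.

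Glycolysis turns glucose into pyruvate in the cytosol. Glucose enters through carriers such as Slc2a1, is trapped by hexokinases, committed by phosphofructokinase, split by aldolase and oxidised through the enzymes from Gapdh to Pkm. Lactate dehydrogenase turns pyruvate into lactate, which leaves the cell through monocarboxylate carriers. When oxygen is low, prolyl hydroxylases (the Egln genes) no longer mark the factor Hif1a for the ubiquitin ligase that contains Vhl, and Hif1a pairs with Arnt and binds DNA at sites with the core ACGTG. Much of this control acts on protein, which was not measured here. Macrophages in tumors often meet low oxygen, whereas AMs live in the air space, where oxygen is high and glucose is scarce.

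Because Hif1a binds this core, the promoters of the genes were read from RefSeq sequences of mouse GRCm38.p6, the assembly also called mm10. A promoter was taken as 250 bases before to 50 bases after each start, and both strands were searched for ACGTG, whose reverse complement is CACGT. Of 24 glycolysis genes with a promoter, 15 (62.5%) had the core in at least 1 promoter, and of 15 hypoxia genes 11 (73.3%) did, against 30.2% of tested genes. Per promoter, the shares were 48.6% of 37 and 70.6% of 17, against 19.6% of all 32851 promoters of this length. The promoters of Slc2a3, Epas1, Bnip3l and Ndrg1 were not analysed here. The shares of the listed genes include Eno2, Egln3, Adm and Ddit4, which were not tested for RNA changes. Of all genes with a promoter, tested or not, 21.8% had the core in at least 1 promoter. The genes were listed for glycolysis and the response to low oxygen, which may partly set their shares in advance. No conclusion is drawn from the difference. A match describes letters and not a bound site. The windows of 30 bases shown here belong to genes described below, and the capitals mark the core, with the gene strand read 5′ to 3′:
Slc2a1: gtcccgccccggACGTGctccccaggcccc
Hk2: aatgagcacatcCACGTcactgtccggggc
Hk3: actacattttgaCACGTtgcctagttcaac
Pgk1: aaatggaagtagCACGTctcactagtctcg
Pgam1: cgctccttgcttACGTGcgctccgtgactg
Slc16a3: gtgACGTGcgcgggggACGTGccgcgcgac
Hif1a: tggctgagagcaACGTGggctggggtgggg
Bnip3: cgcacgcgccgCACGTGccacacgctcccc
P4ha1: ggtgtgacagagcgCACGTagcgagggctg
The Slc2a1 window lay at chr4:119108697-119108726 on the plus strand, and the Slc16a3 window, with 2 cores, at chr11:120949037-120949066 on the plus strand. Both overlapped an annotated exon of their own gene in GENCODE. The windows of Hk2 (chr6:82774489-82774518 on the minus strand), Hk3 (chr13:55021524-55021553 on the minus strand), Pgk1 (chrX:106186957-106186986 on the plus strand), Pgam1 (chr19:41911745-41911774 on the plus strand), Bnip3 (chr7:138909596-138909625 on the minus strand) and P4ha1 (chr10:59323266-59323295 on the plus strand) lay outside annotated genes. The Hif1a window (chr12:73907785-73907814 on the plus strand) lay in the gene outside exons, and it overlapped Gm15283 on the other strand.

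The sorted populations carried the RNA of their labels. The 10 AM markers, Siglecf and Marco among them, summed to 26318 to 31868 FPKM for Ctrl-AM, 22972 to 39795 for Tumor-AM and 294 to 614 for Tumor-macrophage. Chil3 made up most of the AM sums, at 23048 to 28521 FPKM for Ctrl-AM and 20425 to 36468 for Tumor-AM. Marco ran from 60.2 to 329 FPKM within Tumor-AM. Pparg was at 185 to 216 FPKM for Ctrl-AM and 135 to 144 for Tumor-AM. All 10 were lower in Tumor-macrophage than in either AM group, though Mrc1 was still at 60.7 to 77.2 FPKM there. The 8 TAM markers, complement and monocyte genes such as C1qb and Ccr2, summed to 24.3 to 30.2, 72.6 to 131 and 13724 to 14171 FPKM. Siglecf and the TAM marker Itgam code for Siglec-F and CD11b, by which the cells were sorted, so their difference was partly set by the sort. Cx3cr1 and Tgfb3 reached 1 FPKM only in Tumor-macrophage and were tested because they were high there. Depth was estimated from the spacing of low values at 9900000 to 12500000 reads a sample, and the ranges of the groups overlapped. In bulk RNA, fewer cells of a type and less RNA per cell cannot be told apart.

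In Tumor-AM against Ctrl-AM, glycolysis genes that changed were all higher. Of 23 tested, 9 passed an adjusted p of 0.05 (limma, Benjamini-Hochberg over all genes tested), all upward, which is 39.1% where 10.3% of all tested genes passed and 7.11% passed upward. They were Slc2a1, Hk1, Hk2, Pfkl, Aldoc, Pgam1, Eno1, Ldhb and Slc16a3, which spread from glucose entry to lactate export. The median log2 change was 0.37 over the 23 genes and 0.014 over all tested genes. The groups did not overlap for 17 of the 23 genes, as for 32.3% of all tested genes. Of the hypoxia genes, Hif1a, Arnt and Mxi1 passed upward and none downward, 3 of 15 (20.0%), with a median of 0.11.

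Slc2a1 (chr4:119108711-119137983), the main glucose carrier of many cells, was past the threshold in all 3 comparisons. Its FPKM were 14.2, 14.9 and 13.3 for Ctrl-AM, 24.3, 32.9 and 31.4 for Tumor-AM and 52.8, 62.6 and 55.5 for Tumor-macrophage. Every Tumor-AM sample was above every Ctrl-AM sample, and every Tumor-macrophage sample was above both. Tumor-AM had 2.09 times the mean FPKM of Ctrl-AM (log2 change 1.00 ± 0.12 (SE), adjusted p = 0.00079 by limma), and Tumor-macrophage had 1.93 times that of Tumor-AM (log2 change 0.93 ± 0.12 (SE), adjusted p = 6.75e-05). Slc2a3, a high-affinity glucose carrier, stayed at or under 0.838 FPKM in every sample and was not tested.

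The hexokinases, which phosphorylate glucose, differed in the size of their changes. Hk1 (chr10:62268855-62379908), the housekeeping form, was at 2.87, 4.08 and 3.34 FPKM for Ctrl-AM, 6.13, 7.17 and 6.45 for Tumor-AM and 14.8, 16.9 and 11.6 for Tumor-macrophage, 3 ranges that did not overlap. Its log2 change was 0.78 ± 0.15 (SE) in Tumor-AM against Ctrl-AM (limma adjusted p = 0.00932) and 1.01 ± 0.15 in Tumor-macrophage against Tumor-AM (adjusted p = 0.000232). Hk2 (chr6:82725025-82774454), an inducible form, was at 3.38, 3.71 and 4.68 FPKM for Ctrl-AM, 6.85, 7.14 and 7.09 for Tumor-AM and 9.64, 8.38 and 9.35 for Tumor-macrophage. It rose between the AM groups (log2 change 0.71 ± 0.12 (SE), adjusted p = 0.00449 by limma) and from Tumor-AM to Tumor-macrophage (log2 change 0.33 ± 0.12 (SE), adjusted p = 0.0388), and the latter call held in only 8 of 18 alternative analyses. It was lost when Ctrl-AM 2, any Tumor-AM sample, Tumor-macrophage 1 or Tumor-macrophage 3 was left out, with adjusted p up to 0.104, and also with values rescaled to a common total per sample (TPM, adjusted p = 0.129), with quantile normalization, without the filter on low values and with a block for the replicate number. Hk3, the form of myeloid cells, was at 15.1, 13.1 and 11.9 FPKM for Ctrl-AM, 16.9, 22.6 and 17.7 for Tumor-AM and 100.3, 114 and 76.5 for Tumor-macrophage. The AM groups did not overlap for Hk3, but the change was not past the threshold (log2 change 0.48 ± 0.16 (SE), adjusted p = 0.0838), whereas Tumor-macrophage had 5.08 times the mean of Tumor-AM (log2 change 2.28 ± 0.16 (SE), adjusted p = 6.53e-07).

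**Figure D1:**
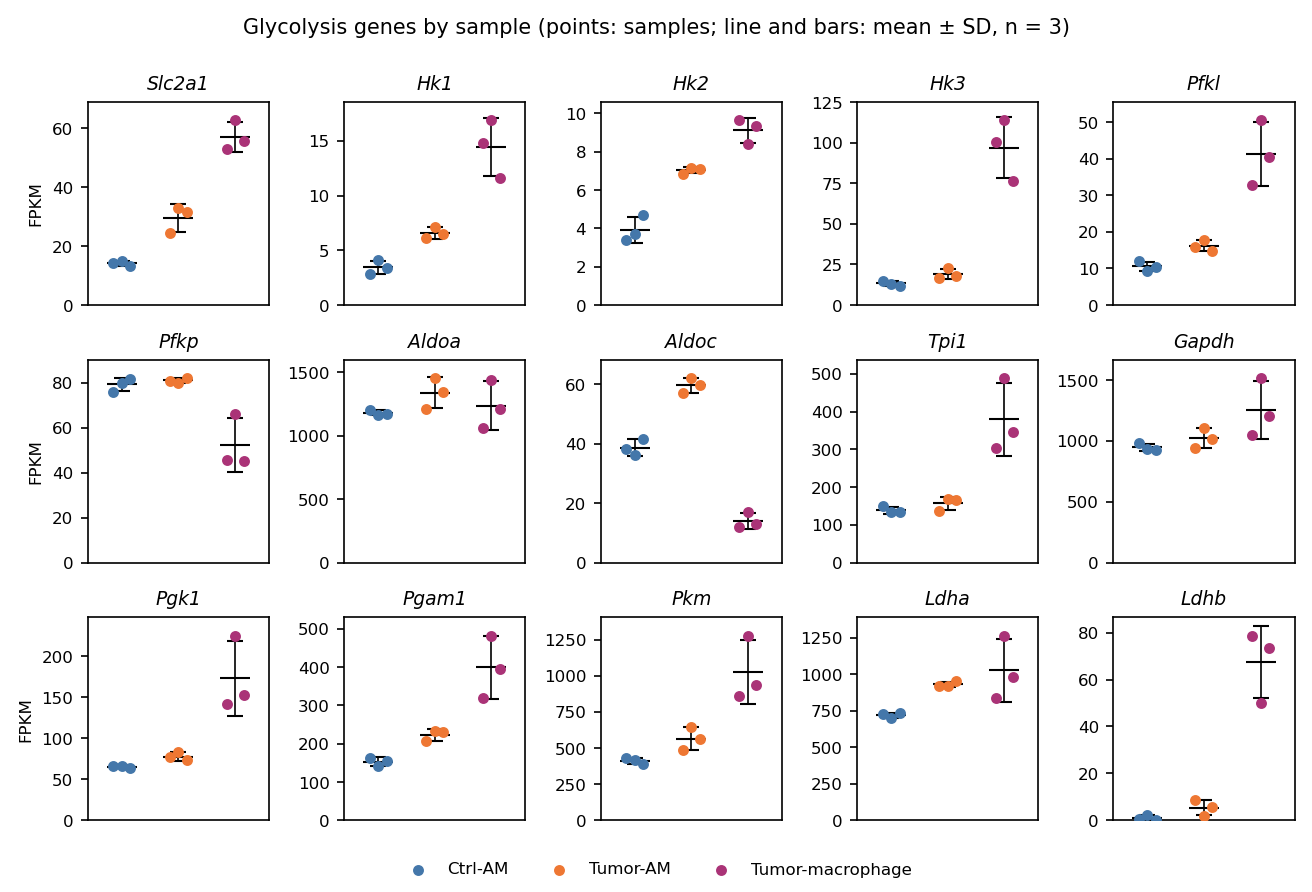
FPKM of 15 glycolysis and lactate genes (vertical axis, linear, each panel from 0) in each sample of Ctrl-AM, Tumor-AM and Tumor-macrophage, with the mean and SD of 3 samples. Slc2a1, Hk1 and Hk2 step up from group to group without overlap, Hk3 and Ldhb are far higher in Tumor-macrophage, Aldoc is highest in Tumor-AM, and Tumor-macrophage 2, the middle point, is often the highest of its group.

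The forms of phosphofructokinase, which commits sugar to glycolysis, also differed. Pfkl, a liver-type phosphofructokinase, was at 12, 9.37 and 10.4 FPKM for Ctrl-AM, 15.8, 17.9 and 14.8 for Tumor-AM and 32.9, 50.5 and 40.5 for Tumor-macrophage, with no overlap between groups. Pfkp, the platelet type, was at 76, 80 and 81.9 FPKM for Ctrl-AM, 80.9, 80.1 and 82.1 for Tumor-AM and 45.5, 66.3 and 45.2 for Tumor-macrophage. Pfkp ranges overlapped between the AM groups (log2 change 0.03 ± 0.13 (SE), adjusted p = 0.913) and were lower in Tumor-macrophage (log2 change −0.64 ± 0.13 (SE), adjusted p = 0.0017 against Tumor-AM), while Pfkl was higher in Tumor-macrophage than in Tumor-AM (log2 change 1.28 ± 0.15 (SE), adjusted p = 3.94e-05, all by limma). Pfkl passed only narrowly between the AM groups (log2 change 0.57 ± 0.15 (SE), adjusted p = 0.037).

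Aldoc (chr11:78322968-78327781), the brain-type aldolase, was the only glycolysis gene past the threshold upward in Tumor-AM and downward in Tumor-macrophage. Its FPKM were 38.2, 36.1 and 41.7 for Ctrl-AM, 57, 62.1 and 59.9 for Tumor-AM and 12.2, 17 and 13 for Tumor-macrophage. No 2 groups overlapped, and Tumor-AM was the highest. The log2 change was 0.62 ± 0.11 (SE) against Ctrl-AM (limma adjusted p = 0.00813) and −2.03 ± 0.11 from Tumor-AM to Tumor-macrophage (adjusted p = 1.53e-07). Aldoa, the ubiquitous aldolase and the more abundant of the pair, lay between 1059 and 1454 FPKM over all 9 samples and passed in no comparison.

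From the aldolase step to pyruvate, levels were high in all groups. Pgam1, which moves the phosphate of 3-phosphoglycerate, was at 163, 141 and 156 FPKM for Ctrl-AM, 206, 234 and 229 for Tumor-AM and 320.1, 482 and 395 for Tumor-macrophage. Eno1, the enolase of most cells, was at 254, 304 and 255 FPKM for Ctrl-AM, 358, 381 and 417 for Tumor-AM and 521, 704 and 544 for Tumor-macrophage. Both stepped up from group to group without overlap, by 0.54 ± 0.13 and 0.51 ± 0.12 (log2, SE) in Tumor-AM against Ctrl-AM (limma adjusted p = 0.027 and 0.0249) and by 0.82 ± 0.13 and 0.60 ± 0.12 from Tumor-AM to Tumor-macrophage. Tpi1, Pgk1 and Pkm, the isomerase, the phosphoglycerate kinase and the pyruvate kinase, passed upward only in Tumor-macrophage, with log2 changes against Tumor-AM of 1.24 ± 0.15, 1.11 ± 0.15 and 0.85 ± 0.14. Between the AM groups their changes were 0.18 ± 0.15, 0.25 ± 0.15 and 0.45 ± 0.14, with adjusted p of 0.541, 0.336 and 0.0798. Gpi1, the second enzyme of the path, gave 0.10 ± 0.11 between the AM groups and 0.64 ± 0.11 from Tumor-AM to Tumor-macrophage (adjusted p = 0.000638). Eno2, the neuronal enolase, was at 0 to 1.54 FPKM and was not tested.

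Gapdh, the enzyme at the oxidation step and the reference gene of the study's PCR, was at 982, 935 and 922 FPKM for Ctrl-AM, 946, 1108 and 1018 for Tumor-AM and 1047, 1517 and 1201 for Tumor-macrophage. The AM groups overlapped (log2 change 0.11 ± 0.12 (SE), adjusted p = 0.637 by limma), and the sign turned under TPM (−0.028). Tumor-macrophage passed against Ctrl-AM (log2 change 0.39 ± 0.12 (SE), adjusted p = 0.0191) and not against Tumor-AM (log2 change 0.28 ± 0.12 (SE), adjusted p = 0.082). The first of these calls was lost under TPM, without the filter on low values, without Ctrl-AM 2 and without Ctrl-AM 3, with adjusted p from 0.0504 to 0.314. Near-identical copies make these values uncertain, because 80.3% of the 75-base windows of a Gapdh transcript also occur in other genes, as do 67.5% for Pgk1, 65.4% for Eno1, 40.6% for Pgam1 and 19.6% for Pkm. The share found in other genes was 16.7% for Ldhb, 14.8% for Gpi1 and 12.1% for Ndrg1. For Pfkp it was 16.6%, all in common with Pitrm1, which is a different gene and no copy of Pfkp, and reads of Hk1 cannot be told from those of the antisense gene Hk1os where both overlap. Eno1b had the most windows in common with Eno1. It was at 37.4, 4.41 and 45.3 FPKM for Ctrl-AM, 55.4, 88.6 and 85.7 for Tumor-AM and 79.8, 128 and 75.4 for Tumor-macrophage. Eno1b was lowest in Ctrl-AM 2, the Ctrl-AM sample in which Eno1 was highest. Between the AM groups Eno1b did not pass (log2 change 1.84 ± 0.65 (SE), adjusted p = 0.109 by limma). How reads shared between copies were counted, Eno1 and Eno1b included, was not given in the sources used here.

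The lactate genes separated into a dehydrogenase that was high throughout and one that was high in TAMs. Ldha, which favours lactate, was at 725, 699 and 734 FPKM for Ctrl-AM, 917, 921 and 952 for Tumor-AM and 838, 1263 and 981 for Tumor-macrophage. The AM groups did not overlap, but the change was not past the threshold (log2 change 0.37 ± 0.12 (SE), adjusted p = 0.0871 by limma), and Tumor-macrophage overlapped Tumor-AM (log2 change 0.12 ± 0.12 (SE), adjusted p = 0.438). Tumor-macrophage passed against Ctrl-AM (log2 change 0.49 ± 0.12 (SE), adjusted p = 0.00596), though not under TPM (adjusted p = 0.12). Ldhb, which favours pyruvate, was at 0.594, 2.34 and 0.0734 FPKM for Ctrl-AM, 8.6, 2.04 and 5.59 for Tumor-AM and 78.7, 50.2 and 73.5 for Tumor-macrophage. The AM groups overlapped at about 2 FPKM, and their difference passed narrowly (log2 change 1.69 ± 0.45 (SE), adjusted p = 0.0418), while Tumor-macrophage had 12.5 times the mean of Tumor-AM (log2 change 3.54 ± 0.45 (SE), adjusted p = 8.15e-05).

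Slc16a3, a lactate exporter, was at 14.3, 19 and 18.7 FPKM for Ctrl-AM, 28.9, 23.8 and 32.3 for Tumor-AM and 47.1, 70 and 50.4 for Tumor-macrophage. Its groups did not overlap, with log2 changes of 0.68 ± 0.17 (SE, limma adjusted p = 0.0294) and 0.94 ± 0.17 (adjusted p = 0.000834) at the 2 steps. Slc16a1, the carrier for lactate in both directions, ran from 6.12 to 7.31 FPKM for Ctrl-AM, 8.04 to 8.86 for Tumor-AM and 7.98 to 10.1 for Tumor-macrophage, and passed only between the outer groups (log2 change 0.33 ± 0.12 (SE), adjusted p = 0.0316). That call was lost without Ctrl-AM 2, without Ctrl-AM 3 and without Tumor-macrophage 3, with adjusted p of 0.0686, 0.112 and 0.117. It was also lost under TPM (log2 change 0.13, adjusted p = 0.37), quantile normalization, the replicate block and a fit of the compared groups alone.

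The calls between the AM groups did not all have the same footing. Slc2a1, Hk1, Hk2, Aldoc and Hif1a passed upward in each of 18 alternative analyses. Eno1 passed in 12 of 18, Pgam1, Slc16a3 and Arnt in 11, Mxi1 in 8, Ldhb in 7 and Pfkl in 6, with adjusted p up to 0.146 elsewhere. When 1 sample was left out, Pfkl lost its call for each of the 6 AM samples and for Tumor-macrophage 3, Pgam1 for each Ctrl-AM sample, Tumor-AM 2 and Tumor-AM 3, and Eno1 for Ctrl-AM 1, Ctrl-AM 3, Tumor-AM 2 and Tumor-AM 3. Ldhb lost its call for Ctrl-AM 1, Ctrl-AM 3, Tumor-AM 1, Tumor-AM 3, Tumor-macrophage 1 and Tumor-macrophage 3, and Slc16a3 for each Ctrl-AM sample, Tumor-AM 1 and Tumor-AM 3. The 9 glycolysis calls became 4 when Ctrl-AM 1, Ctrl-AM 3 or Tumor-AM 3 was left out, 6 when Ctrl-AM 2, Tumor-AM 1 or Tumor-AM 2 was left out, and 12 without Tumor-macrophage 2, and none was downward. The 3 hypoxia calls became 1, Hif1a, without Ctrl-AM 1, Ctrl-AM 2 or Tumor-AM 1. Of all tested genes, 5.03% to 7.91% passed when 1 AM sample was left out, and 11.7% without Tumor-macrophage 2. Rescaling to TPM moved the median of all genes to −0.11 and lowered the share of upward calls among all genes from 69.1% to 36.6%, or to 57.6% under quantile normalization. Under TPM 5 glycolysis genes still passed, all upward, with a median of 0.23, and the hypoxia genes had 1 call in each direction. The share of all tested genes that passed under TPM was 12.2%.

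Marker genes of other cells and stress genes also differed between the AM groups. Of the 8 TAM markers, 6 were higher in Tumor-AM, and none was listed at 0 in any sample. The summed fibroblast markers were 3.72 to 6.70 FPKM in Ctrl-AM and 12.8 to 85.3 in Tumor-AM, with Tumor-AM 3 highest, and 2 of the 3 tested passed upward. Markers of neutrophils, lung epithelium, dendritic cells and B cells gave 2, 1, 1 and 1 lower genes and 0 higher. Among 10 dissociation and stress genes, Fosb (0.91) and Junb (1.11) were higher in Tumor-AM (20.0%). The lung epithelial gene was 12.5% of the 8 tested. These 2 shares rest on 2 and 1 genes and are not read as results about stress or epithelium. To set sizes side by side, the rise from Ctrl-AM to Tumor-AM was written as a percent of the gap from Ctrl-AM to Tumor-macrophage. It was 35.9% for Slc2a1, 28.6% for Hk1, 59.7% for Hk2, 18.3% for Pfkl, 35.9% for Eno1, 23.8% for Hif1a and 6.63% for Ldhb. For the TAM markers it was 0.234% (Cx3cr1) to 7.07% (Ccr2). The genes were taken because they rose between the AM groups, and the markers because they mark TAMs. This choice partly sets the ranges apart in advance, so no conclusion is drawn from their difference. Aldoc, lower in Tumor-macrophage, had no such share. Whether the RNA of these marker and stress genes came from other cells or from AMs was not tested. The part of TAM RNA, of fibroblast RNA and of cell handling in the results was not tested either.

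**Figure D2:**
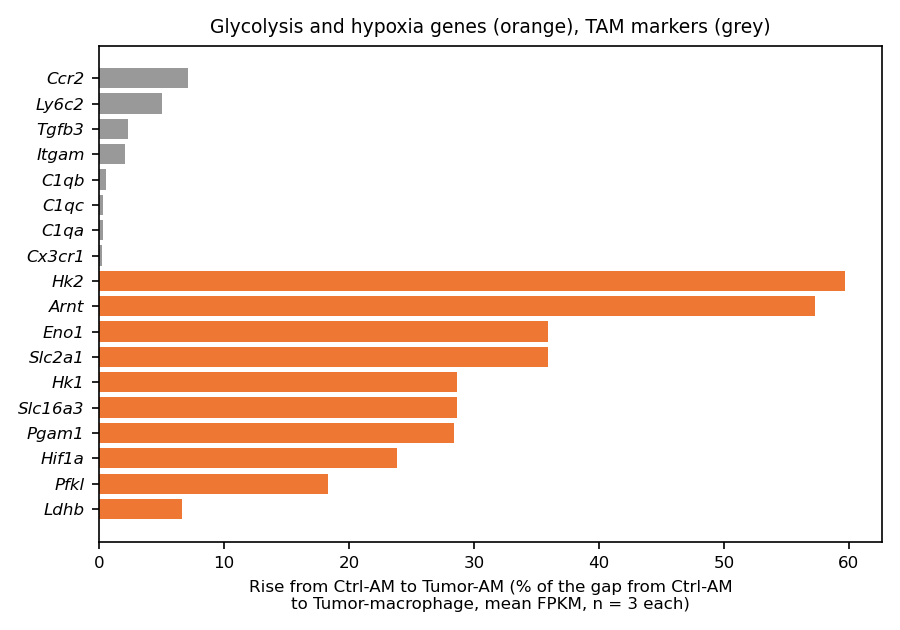
Rise of the mean FPKM from Ctrl-AM to Tumor-AM as a percent of the gap from Ctrl-AM to Tumor-macrophage (horizontal axis, n = 3 samples a group), for glycolysis and hypoxia genes past the threshold in Tumor-AM against Ctrl-AM (orange) and the 8 TAM markers (grey). Bars run from 6.63% (Ldhb) to 59.7% (Hk2) for the former and from 0.234% to 7.07% for the markers. Mxi1 (134%) and Aldoc are not drawn. The genes were taken because they rose between the AM groups and the markers because they mark TAMs, which partly sets the ranges apart in advance.

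In Tumor-macrophage, most of glycolysis differed from AMs. Against Tumor-AM, 19 of 23 glycolysis genes passed, 16 higher and 3 lower, or 82.6% where 48.6% of all tested genes passed (limma). The median log2 change was 0.82, against 0.0012 over all tested genes. Against Ctrl-AM, 22 of 23 passed, 19 higher and 3 lower, or 95.7% where 54.8% of all tested genes passed, with a median of 1.2. Over all tested genes, 24.2% passed upward and 24.4% downward against Tumor-AM, and 27.7% and 27.1% against Ctrl-AM. The lower glycolysis genes in both comparisons were Aldoc, Pfkp and Pfkfb4. The groups did not overlap for 19 glycolysis genes against Tumor-AM (as for 55.3% of all tested genes) and for 22 against Ctrl-AM (as for 62.3%). Under TPM the median of all genes against Ctrl-AM moved to −0.22 and the share of upward calls from 50.5% to 32.6%, with 15 glycolysis genes higher and 3 lower and 8 hypoxia genes higher and 2 lower. These comparisons share the Tumor-macrophage samples, and the first shares Tumor-AM with the comparison above. Tumor-macrophage and Ctrl-AM differ in cell type as well as in the mice.

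The regulatory kinases moved in opposite directions. Pfkfb3 and Pfkfb4 make and break fructose 2,6-bisphosphate, the activator of phosphofructokinase, and Pfkfb3 is the form with the stronger kinase. Pfkfb3 was at 5.23, 5.74 and 4.55 FPKM for Ctrl-AM, 6.66, 6.07 and 6.92 for Tumor-AM and 21.2, 15.9 and 22 for Tumor-macrophage. Pfkfb4 was at 51, 58.2 and 54.1 FPKM for Ctrl-AM, 59.9, 51.2 and 60 for Tumor-AM and 18, 14.6 and 15.6 for Tumor-macrophage. Tumor-macrophage samples were all higher for Pfkfb3 (log2 change 1.44 ± 0.13 (SE), adjusted p = 6.81e-06 against Tumor-AM, limma) and all lower for Pfkfb4 (log2 change −1.77 ± 0.10 (SE), adjusted p = 1.49e-07). Pdk1, which shuts pyruvate out of the mitochondrial oxidation step, was higher in Tumor-macrophage (log2 change 0.53 ± 0.13 (SE), adjusted p = 0.00703) and did not pass between the AM groups (log2 change −0.06 ± 0.13 (SE), adjusted p = 0.847). Pfkm, the muscle-type phosphofructokinase, reached 1 FPKM only in the 3 Tumor-macrophage samples (2.51, 2.98 and 1.66, against 0.179 to 0.624 in AMs), as did Ankrd37 and P4ha2 among the hypoxia genes, so that the filter admitted these 3 genes by the group in which they were high. Without Pfkm, 18 of 22 glycolysis genes passed against Tumor-AM (81.8%).

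**Figure D3:**
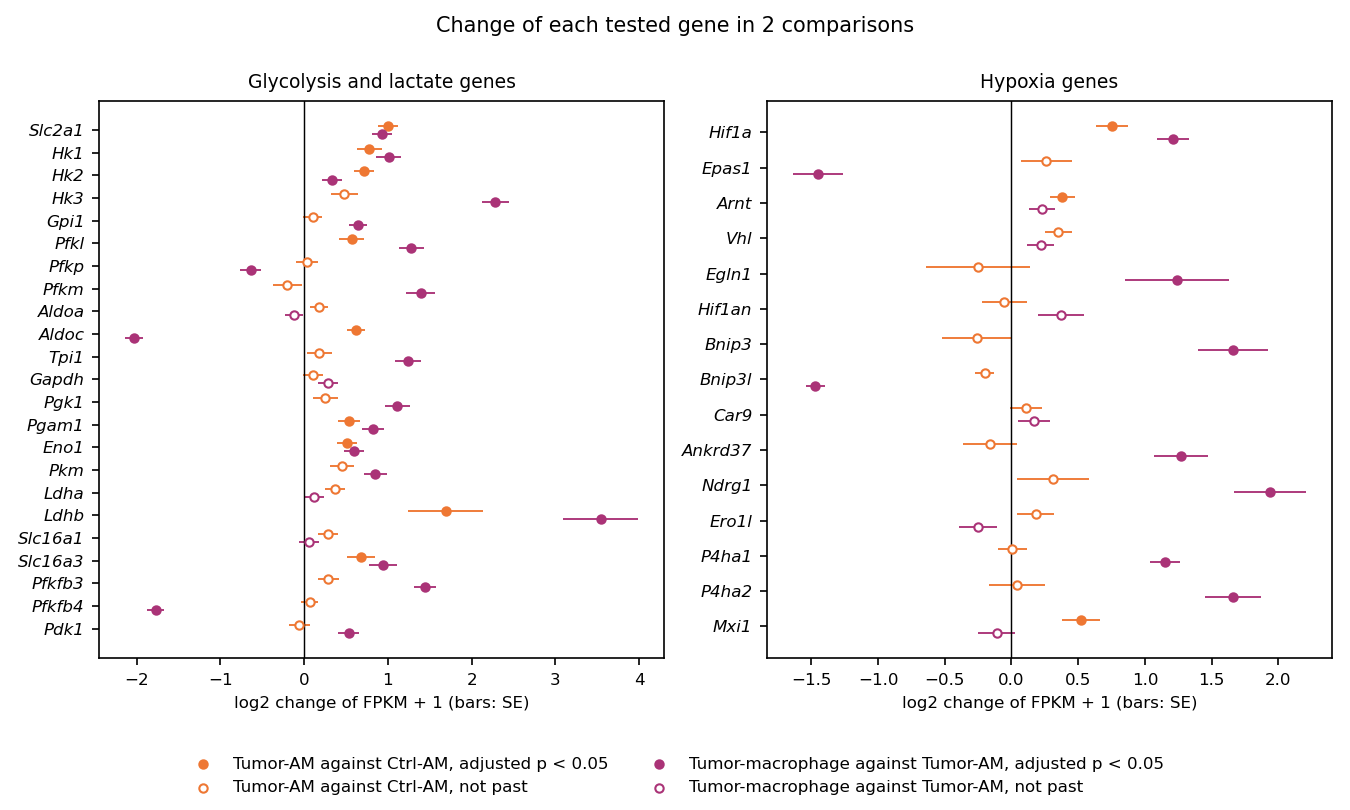
Log2 change of FPKM + 1 (horizontal axis, bars are the SE of the limma fit) for the 23 glycolysis and lactate genes and the 15 hypoxia genes tested, in Tumor-AM against Ctrl-AM (orange) and Tumor-macrophage against Tumor-AM (purple). Filled points passed an adjusted p of 0.05. Pfkm, Ankrd37 and P4ha2 were tested because they were high in Tumor-macrophage. All filled orange points lie to the right of 0, while Aldoc, Pfkp, Pfkfb4, Epas1 and Bnip3l have filled purple points to the left.

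Written as shares of the summed FPKM of a set, the balance of forms moved for several enzymes, and among the enzyme sets given here the leading form changed for Pfkfb3 and Pfkfb4 alone. Hk3 held 59.7% to 70.7% of the hexokinase FPKM for Ctrl-AM, 56.5% to 61.3% for Tumor-AM and 78.5% to 81.8% for Tumor-macrophage. Pfkl held 10.4% to 13.5% of the phosphofructokinase set in Ctrl-AM, 15.3% to 18.2% in Tumor-AM and 40.6% to 46.4% in Tumor-macrophage. Pfkp held the largest share in all 9 samples, 51.7% at the lowest. Pfkfb3 held 7.75% to 9.31%, 10.0% to 10.6% and 52.2% to 58.4% of its pair with Pfkfb4. Ldhb held under 1% of its pair with Ldha in both AM groups and 3.82% to 8.58% in Tumor-macrophage, so that Ldha remained the main form. Aldoc held 3.00% to 3.43%, 4.10% to 4.48% and 1.06% to 1.16% of its pair with Aldoa. The AM groups overlapped for the Hk3 and Ldhb shares and not for those of Pfkl, Pfkfb3 and Aldoc. Slc16a3 held 66.2% to 75.4% of the lactate carrier pair in Ctrl-AM, 74.8% to 79.8% in Tumor-AM and 83.2% to 89.8% in Tumor-macrophage.

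**Figure D4:**
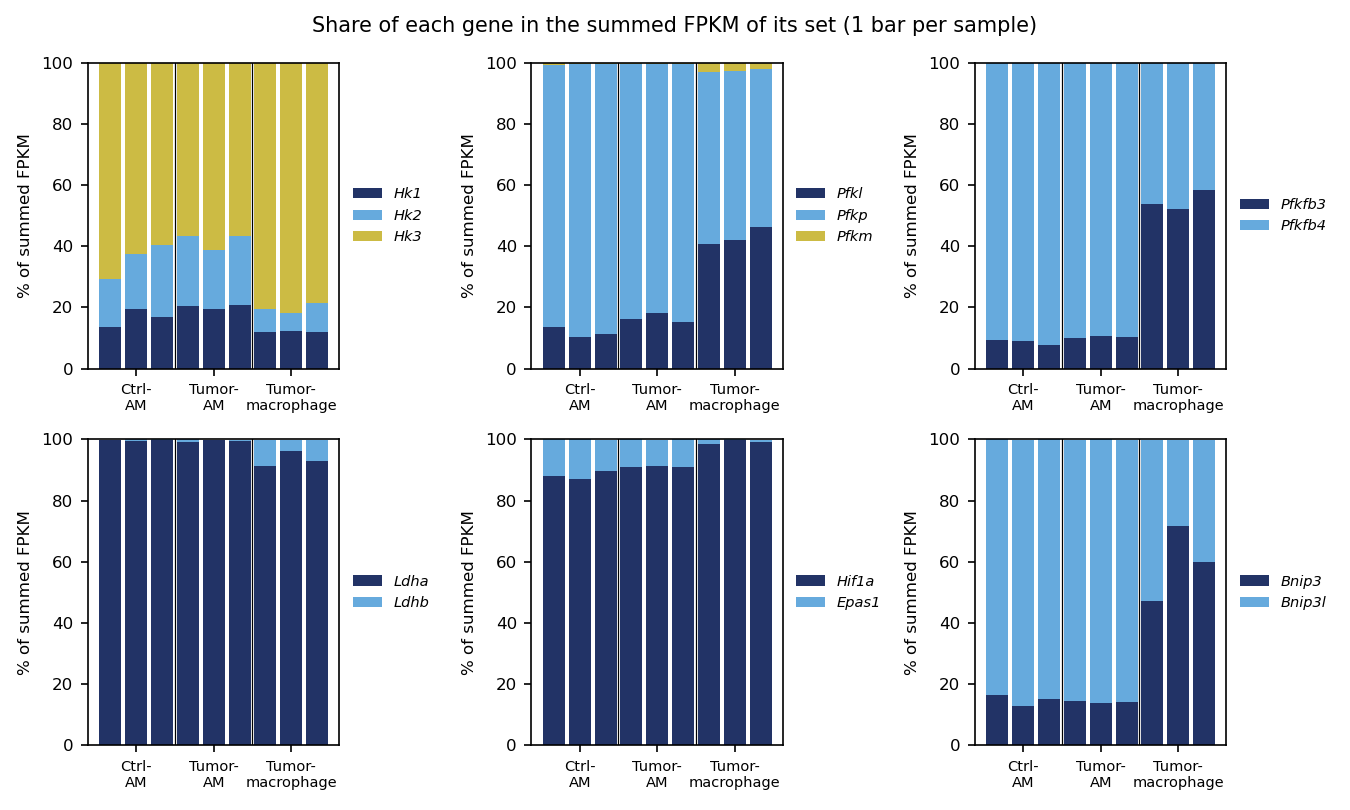
Percent of the summed FPKM of each set (vertical axis, 0 to 100) held by each gene, with 1 bar a sample and 3 samples a group. Pfkfb3 takes 52.2% to 58.4% of its pair in Tumor-macrophage and at most 10.6% in AMs, and Bnip3 takes 47.2% to 71.6% against at most 16.3%. The Hif1a share is at least 98.5% in Tumor-macrophage.

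One TAM sample stood above its group in this pathway. Tumor-macrophage 2 was the highest of its 3 samples for 18 of 23 glycolysis genes (78.3%), as for 34.7% of all tested genes and for 6 of 15 hypoxia genes. The summed FPKM of the 25 glycolysis genes was 5684, 8102 and 6347 in Tumor-macrophage, 4176 to 4311 in Ctrl-AM and 4775 to 5422 in Tumor-AM, and the 3 ranges did not overlap. The FPKM of all genes also differed, at 635560 to 660730 in Ctrl-AM, 694977 to 731731 in Tumor-AM and 743858 to 785745 in Tumor-macrophage. As a percent of that total, the glycolysis sum was 0.639% to 0.657%, 0.687% to 0.741% and 0.736% to 1.09% in this order. On this scale Tumor-AM and Tumor-macrophage overlapped. Tumor-macrophage 2 was also highest for 5 of 6 proliferation genes and for none of the 10 stress genes and none of the B cell or T and NK cell markers. Without it, the glycolysis count against Tumor-AM was again 19 and the median fell from 0.82 to 0.67. The summed B cell markers were 31.5 to 58.2 FPKM in Tumor-macrophage and 3.15 to 16.8 in AMs, and all 4 passed upward against both AM groups. The summed T and NK cell markers were 11.3 to 22.6 FPKM and 3.57 to 11.6 in AMs, and 3 of the 4 tested passed upward against Tumor-AM and 4 against Ctrl-AM. The summed dendritic cell markers were 24.4 to 54.1 FPKM and 6.23 to 16.6 in AMs, and 3 of the 4 tested passed upward in each comparison. Among these 3, Xcr1 reached 1 FPKM only in Tumor-macrophage (1.87 to 2.09 FPKM, against at most 0.652 in AMs). It was thus tested because it was high there. Of 6 proliferation genes 3 and 4 were higher, and of 10 stress genes 4 and 7 were, with 1 lower against Tumor-AM and with Hspa1a (2.25) and Egr1 (1.73) higher against Tumor-AM. Each of these 2 lists had 50.0% called against Tumor-AM, and they had 66.7% and 70.0% against Ctrl-AM. Of all tested genes, 48.6% and 54.8% passed in these comparisons, 24.2% and 27.7% upward. The share of 50.0% is near that of all tested genes and is not read as a result about division or stress. The part of cell division, of cell handling or of other cells in these results was not tested.

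Among the hypoxia genes, the 2 alpha subunits moved apart. Hif1a (chr12:73901375-73947530), the general oxygen-regulated subunit, was at 20.9, 19.8 and 21.5 FPKM for Ctrl-AM, 32.8, 42.4 and 32.6 for Tumor-AM and 72.7, 85.1 and 95.6 for Tumor-macrophage. The 3 groups did not overlap, and each step passed (log2 change 0.75 ± 0.12 (SE), adjusted p = 0.00418 and log2 change 1.21 ± 0.12 (SE), adjusted p = 1.33e-05 by limma). Epas1, the related subunit HIF-2 alpha, was at 2.86, 2.94 and 2.44 FPKM for Ctrl-AM, 3.24, 4 and 3.22 for Tumor-AM and 1.12, 0.204 and 0.716 for Tumor-macrophage. It did not pass between the AM groups (log2 change 0.26 ± 0.19 (SE), adjusted p = 0.46) and fell from Tumor-AM to Tumor-macrophage (log2 change −1.45 ± 0.19 (SE), adjusted p = 0.000102). The Epas1 share of the pair was 10.2% to 12.9% in Ctrl-AM, 8.63% to 9.0% in Tumor-AM and 0.239% to 1.51% in Tumor-macrophage.

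For the partner subunit and the subunit of the ligase the 3 groups did not overlap, but not every step passed. Arnt, the partner subunit, was at 8.34, 8.93 and 7.87 FPKM for Ctrl-AM, 12.2, 11.2 and 10.3 for Tumor-AM and 13.7, 12.7 and 13.4 for Tumor-macrophage. It passed in Tumor-AM against Ctrl-AM (log2 change 0.38 ± 0.10 (SE), adjusted p = 0.0324 by limma) and not from Tumor-AM to Tumor-macrophage (log2 change 0.23 ± 0.10 (SE), adjusted p = 0.0678). The first call was lost when any Ctrl-AM sample, Tumor-AM 1 or Tumor-AM 2 was left out, with adjusted p of 0.0548 to 0.12, and under TPM (adjusted p = 0.124) and the replicate block. Vhl was at 13.2, 13 and 16.5 FPKM for Ctrl-AM, 19, 17 and 19.1 for Tumor-AM and 21.4, 20.5 and 22.7 for Tumor-macrophage and passed only between the outer groups (log2 change 0.57 ± 0.10 (SE), adjusted p = 0.000855), with log2 change 0.35 ± 0.10 (SE), adjusted p = 0.0609 between the AM groups and adjusted p = 0.104 from Tumor-AM to Tumor-macrophage. Without Ctrl-AM 3 the change between the AM groups passed, with an adjusted p of 0.0321.

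The oxygen sensors among the members reached at most 10.3 FPKM in any sample. Egln1, the main prolyl hydroxylase, was at 2.65, 1.79 and 1.42 FPKM for Ctrl-AM, 1.38, 1.15 and 1.87 for Tumor-AM and 4.9, 10.3 and 1.91 for Tumor-macrophage. The Tumor-macrophage samples spread over a wide range, and the change against Tumor-AM passed (log2 change 1.24 ± 0.39 (SE), adjusted p = 0.023 by limma) but was lost without Tumor-AM 1, Tumor-AM 2, Tumor-macrophage 1 or Tumor-macrophage 2, with adjusted p of 0.0557, 0.0655, 0.056 and 0.0596, and without the filter on low values. Egln3, an inducible hydroxylase, was under the filter, at 0.033, 0.0289 and 0.0289 FPKM for Ctrl-AM, 0.105, 0.355 and 0.325 for Tumor-AM and 0.473, 2.37 and 1.14 for Tumor-macrophage. Its groups did not overlap, but it was not tested. Hif1an, the asparagine hydroxylase, was at 3.16, 2.13 and 3.28 FPKM for Ctrl-AM, 2.93, 2.87 and 2.28 for Tumor-AM and 4.8, 3.63 and 2.99 for Tumor-macrophage and passed in no comparison. Egln2, a prolyl hydroxylase of the further hypoxia genes counted below, was more abundant, at 22, 23.9 and 20.2 FPKM for Ctrl-AM, 21.7, 19 and 19 for Tumor-AM and 26.7, 28 and 21.4 for Tumor-macrophage. It passed from Tumor-AM to Tumor-macrophage, whose ranges overlapped (log2 change 0.33 ± 0.11 (SE), adjusted p = 0.0337 by limma), and in no other comparison.

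**Figure D5:**
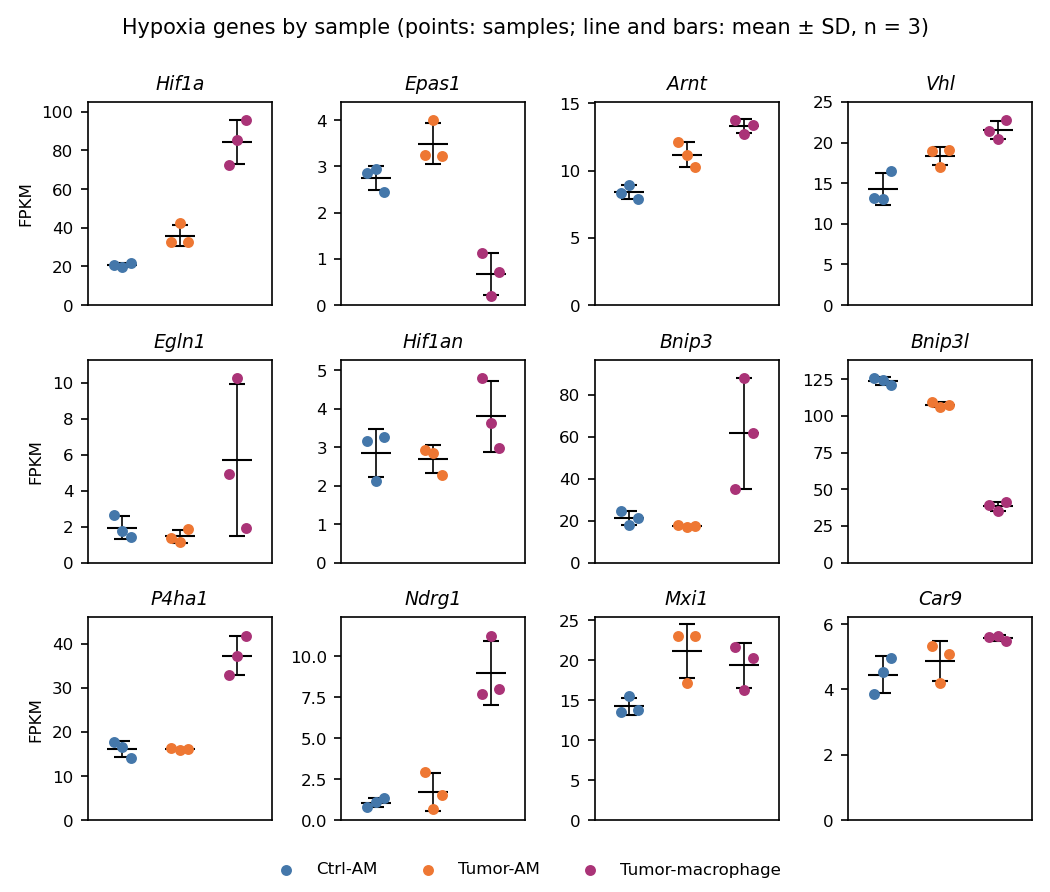
FPKM of 12 hypoxia genes (vertical axis, linear, each panel from 0) in each sample of Ctrl-AM, Tumor-AM and Tumor-macrophage, with the mean and SD of 3 samples. Hif1a rises at both steps, Epas1 and Bnip3l are lowest in Tumor-macrophage, Bnip3, P4ha1 and Ndrg1 are highest there, and Car9 and Hif1an show no change past the threshold.

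Hypoxia genes that differed between Tumor-macrophage and AMs went in both directions. Against Tumor-AM, 9 of 15 hypoxia genes passed, 7 higher and 2 lower (60.0%, beside 48.6% of all tested genes), with a median log2 change of 0.37. Against Ctrl-AM, 11 of 15 passed, 9 higher and 2 lower (73.3%, beside 54.8%), with a median of 0.61. The 2 lower genes were Epas1 and Bnip3l in both comparisons. The groups did not overlap for 13 of the 15 against Tumor-AM (as for 55.3% of all tested genes) and for 12 against Ctrl-AM (as for 62.3%). Without Ankrd37 and P4ha2, which were tested because they were high in Tumor-macrophage, 7 of 13 passed against Tumor-AM (53.8%), 5 higher and 2 lower, and 9 of 13 against Ctrl-AM (69.2%, beside 54.8%). The 53.8% is near the 48.6% of all tested genes. The share called against Tumor-AM is therefore not read as a result about the hypoxia genes.

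Bnip3 and Bnip3l, related receptors for the removal of mitochondria, went opposite ways. Bnip3 was at 24.6, 18 and 21.2 FPKM for Ctrl-AM, 18.2, 16.8 and 17.5 for Tumor-AM and 35, 88 and 61.8 for Tumor-macrophage. Bnip3l was at 126, 124 and 121 FPKM for Ctrl-AM, 109, 106 and 107 for Tumor-AM and 39.2, 35 and 41.1 for Tumor-macrophage. Each Tumor-macrophage sample was above every AM sample for Bnip3 (log2 change 1.66 ± 0.26 (SE), adjusted p = 0.000329 against Tumor-AM, limma) and below every AM sample for Bnip3l (log2 change −1.47 ± 0.07 (SE), adjusted p = 5.64e-08). Bnip3 held 47.2% to 71.6% of the pair in Tumor-macrophage and 12.7% to 16.3% in AMs. Copies elsewhere in the genome share 46.3% of the windows of Bnip3 and 18.7% of those of Bnip3l.

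P4ha1, a prolyl hydroxylase of collagen, and Ndrg1, a stress-induced gene, were also higher in Tumor-macrophage. P4ha1 was at 17.7, 16.6 and 14.1 FPKM for Ctrl-AM, 16.5, 15.9 and 16.1 for Tumor-AM and 32.9, 37.1 and 41.8 for Tumor-macrophage (log2 change 1.15 ± 0.11 (SE), adjusted p = 7.73e-06 against Tumor-AM, limma). Ndrg1 was at 0.789, 1.09 and 1.36 FPKM for Ctrl-AM, 2.96, 0.684 and 1.52 for Tumor-AM and 7.7, 11.3 and 7.97 for Tumor-macrophage (log2 change 1.94 ± 0.27 (SE), adjusted p = 0.000162). P4ha2, the related hydroxylase, was at 0.157, 0 and 0.0344 FPKM for Ctrl-AM, 0, 0.115 and 0.176 for Tumor-AM and 1.48, 3.72 and 2.55 for Tumor-macrophage. For these 3 genes the AM groups overlapped and all Tumor-macrophage samples were higher. Ankrd37, an ankyrin repeat gene, was at 1.5 to 2.58 FPKM in Tumor-macrophage and at most 0.718 in AMs. P4ha2 and Ankrd37 are given as levels without a test, since the filter admitted them by Tumor-macrophage alone.

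Several target genes did not step up from group to group as Hif1a did. Mxi1, an antagonist of Myc, was at 13.5, 15.5 and 13.8 FPKM for Ctrl-AM, 23, 17.2 and 23.1 for Tumor-AM and 21.7, 16.2 and 20.2 for Tumor-macrophage. It was higher in both groups from tumor-bearing mice than in Ctrl-AM (log2 change 0.52 ± 0.14 (SE), adjusted p = 0.0382 for Tumor-AM and log2 change 0.41 ± 0.14 (SE), adjusted p = 0.0266 for Tumor-macrophage, limma), and those groups overlapped. The Tumor-AM call was lost when any Ctrl-AM sample, Tumor-AM 1, Tumor-AM 3 or Tumor-macrophage 3 was left out, with adjusted p up to 0.127, and the Tumor-macrophage call when Ctrl-AM 1, Ctrl-AM 3, Tumor-macrophage 1 or Tumor-macrophage 3 was, with adjusted p up to 0.0939. Under TPM the latter change was 0.19 (log2, adjusted p = 0.26). Both calls were lost under TPM, quantile normalization and no filter on low values, and the Tumor-AM call with a constant prior variance as well. Car9, a carbonic anhydrase and a classical target, ran from 3.86 to 4.97 FPKM for Ctrl-AM, 4.19 to 5.33 for Tumor-AM and 5.49 to 5.64 for Tumor-macrophage. Ero1l, an oxidase of the endoplasmic reticulum, ran from 20.7 to 23.3 FPKM for Ctrl-AM, 21.9 to 28.7 for Tumor-AM and 16.6 to 23.4 for Tumor-macrophage. Neither passed in any comparison. Adm and Ddit4, a vessel-active peptide and an inhibitor of growth signaling, stayed under the filter, at up to 1.06 and 0.118 FPKM, and both were listed at 0 in some samples.

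The other genes of these pathways were counted in the same fit. Of 28 further glycolysis genes 15 were tested, and 1 passed in Tumor-AM against Ctrl-AM (6.67%, beside 10.3% of all tested genes), the lysosomal carrier Slc2a6 (log2 change 0.74 ± 0.13 (SE), adjusted p = 0.00702 by limma). Against Tumor-AM, 7 were higher in Tumor-macrophage and 2 lower (60.0%, beside 48.6% of all tested genes), with Slc2a6 again the largest (1.49 ± 0.13). All 8 pentose phosphate genes, which divert glucose 6-phosphate to make NADPH and ribose, were tested. Against Tumor-AM, 5 were lower in Tumor-macrophage and none higher (62.5%, beside 48.6% of all tested genes and 24.4% downward), among them Taldo1 (−1.30 ± 0.07) and Pgd (−0.88 ± 0.09). In Tumor-AM against Ctrl-AM 2 were higher, H6pd (0.65 ± 0.14) and Tkt (0.38 ± 0.07), and Rpia was lower (−0.60 ± 0.16). These are 37.5% of the 8, beside 10.3% of all tested genes. Rpia reached 1 FPKM only in Ctrl-AM (1.23 to 2.34 FPKM, against at most 0.94 in the other groups). It was thus tested because it was high there, and it is also among the 5 lower in Tumor-macrophage.

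Of 13 genes that govern the entry of pyruvate into mitochondria, 7 passed from Tumor-AM to Tumor-macrophage (53.8%, near the 48.6% of all tested genes), 6 lower and 1 higher. The share called is not read as a result about these genes. Pdk4, a starvation-induced kinase of the family of Pdk1, was at 13.3, 10.8 and 11.3 FPKM for Ctrl-AM, 5.3, 9.95 and 5.29 for Tumor-AM and 0.0277, 0 and 0 for Tumor-macrophage. It fell at both steps (log2 change −0.75 ± 0.20 (SE), adjusted p = 0.0405 and log2 change −2.91 ± 0.20 (SE), adjusted p = 6.59e-07 by limma), opposite in direction to Pdk1 at the second. Mpc2, a subunit of the pyruvate carrier, was at 196, 189 and 187 FPKM for Ctrl-AM, 134, 139 and 151 for Tumor-AM and 61.2, 59.9 and 55.8 for Tumor-macrophage and also fell at both (log2 change −0.43 ± 0.07 (SE), adjusted p = 0.00376 and log2 change −1.25 ± 0.07 (SE), adjusted p = 1.27e-07). Pdp2, the phosphatase that reactivates the pyruvate step, passed upward between the AM groups (0.62 ± 0.17).

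Of 30 further hypoxia pathway genes 21 were tested. Between the AM groups, 2 passed, both upward, or 9.52% beside 10.3% of all tested genes. Vegfa, the vessel growth factor and a known target of Hif1a, was at 0.326, 1.26 and 0.439 FPKM for Ctrl-AM, 10.4, 3.63 and 6.13 for Tumor-AM and 72.4, 44.8 and 82.1 for Tumor-macrophage. The 3 groups did not overlap, and both steps passed (log2 change 2.15 ± 0.33 (SE), adjusted p = 0.00333 and log2 change 3.18 ± 0.33 (SE), adjusted p = 1.79e-05 by limma). Gbe1, a glycogen branching enzyme, was the other (0.58 ± 0.13). Against Tumor-AM, 12 were higher in Tumor-macrophage and 7 lower (19 of 21, or 90.5% beside 48.6%), with Angptl4 (−4.37 ± 0.08) and the glycogen phosphorylase Pygl (−2.08 ± 0.08) among the lower. Nos2, which makes nitric oxide, was counted among the higher, but it reached 1 FPKM only in Tumor-macrophage (3.98 to 15.3 FPKM, against at most 0.434 in AMs) and was tested because it was high there. Angptl4, a lipase inhibitor that answers both to hypoxia and to fatty acids, was at 207 to 222 FPKM for Ctrl-AM, 185 to 205 for Tumor-AM and 7.74 to 9.27 for Tumor-macrophage.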

How the data were processed

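FPKM were deposited by the authors, with 1 value per gene symbol and sample. Per the labels and the study's methods, cDNA was made with SMART-Seq HT, libraries with Nextera, which does not mark strand, and single-end reads of 75 bases were mapped to mm10 with TopHat2 2.1.1 and Bowtie2. For the FPKM the submitters' processing notes name Cuffdiff 2.2.1 and the study's methods name Cufflinks of that version, and which of these made the values was not settled. The annotation and the treatment of shared reads were not given in the sources used here. Since FPKM are not counts, log2(FPKM + 1) was fitted with limma 3.58.1 in R 4.3.3 (trend in the prior variance, all 9 samples in 1 fit, two-sided, Benjamini-Hochberg over the 10686 genes with at least 1 FPKM in at least 3 samples, threshold 0.05). The pseudocount of 1 understates changes of low genes. The scripts were tested on simulated data. Relative depth, 0.907 to 1.14, came from ratios of low values between each sample and Ctrl-AM 1. The number of reads came from 263 single-transcript genes, and the estimate covers counting error only. The study gives 3 mice a group; the labels do not name the mice. Shared windows came from GENCODE vM21 transcripts.

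The members and the lists were chosen with earlier results of these data known. Values in all samples were given for members past the threshold between the AM groups, for the 5 largest changes in each direction in the other comparisons, and for Gapdh and the oxygen sensing genes. Of other lists, counts and at most 4 genes with the largest changes were given. A few further genes (Ldha, Pfkfb3, P4ha1, Pfkm, Egln2, Eno1b) were given in every sample after their values were seen. Chil3, Marco, Pparg, Mrc1 and Xcr1 were likewise added, as ranges. Marker lists covered neutrophils, lung epithelium, endothelium, dendritic cells and red cells too. In Tumor-AM against Ctrl-AM these gave 0 higher and 2, 1, 0, 1 and 0 lower genes in that order, and B cell markers 1 lower, and T and NK cell markers 0 past the threshold. In Tumor-macrophage the neutrophil and lung epithelial markers gave 3 and 4 lower genes against Tumor-AM and 3 and 3 against Ctrl-AM, the endothelial markers 1 higher against Tumor-AM and 1 in each direction against Ctrl-AM, the fibroblast markers 0 and 1 higher, and the red cell markers 0. Of all tested genes, 10.3% passed between the AM groups, 48.6% in Tumor-macrophage against Tumor-AM and 54.8% against Ctrl-AM. Alternatives were another pseudocount, no filter, a stricter filter, TPM, median-ratio scaling, quantile normalization, a constant prior variance, the compared groups alone, a block for the replicate number, and leaving out each sample.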

Additional observations from a re-analysis of the deposited data

How the results depend on the processing

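In Tumor-AM against Ctrl-AM, the 9 glycolysis genes past the threshold became 4 without the filter on low values, where more genes were tested, and 5 under TPM, and they ranged from 4 to 12 when 1 sample was left out. The hypoxia genes ranged from 1 to 3 when 1 sample was left out. In Tumor-macrophage against Tumor-AM the ranges were 18 to 19 for glycolysis and 8 to 9 for hypoxia genes, and against Ctrl-AM they were 20 to 22 and 10 to 11. With a filter of at least 5 FPKM, 5 of the 10 hypoxia genes left for testing passed in Tumor-macrophage against Tumor-AM. These counts followed the other alternatives within 1.5 times. The sign of Gapdh in Tumor-AM against Ctrl-AM turned under TPM (−0.028, adjusted p = 0.908), and that of Hif1an, which ran from −0.196 to 0.029 when 1 sample was left out, turned without Ctrl-AM 1 (0.0071), without Ctrl-AM 3 (0.028) and without Tumor-AM 3 (0.029), none of them past the threshold. The cause was not tested. Of the members called, 5 of 12 passed in every analysis in Tumor-AM against Ctrl-AM, 26 of 28 in Tumor-macrophage against Tumor-AM and 28 of 33 in Tumor-macrophage against Ctrl-AM. A block for the replicate number gave 8 glycolysis and 2 hypoxia genes in Tumor-AM against Ctrl-AM. Samples with the same number correlated between −0.0615 and 0.159 in their deviations from the group means, with 2 of 9 pairs over the 0.1 that every pair had to pass, so the numbers were not taken as a pairing. In 12 of 18 cases a sample correlated best with its own number, a hint from the data and not from the design. A group of 3 samples limits what can pass, and a gene not past the threshold is not shown to be equal.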
